A study of Homo sapiens with 2 samples.

Results

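The genes described here are 8 members of the BCL2 family (BCL2, BCL2L1, MCL1, BAX, BAK1, BBC3, PMAIP1 and BCL2L11) and the death receptors TNFRSF10A and TNFRSF10B, which bind the ligand TRAIL. They were compared between 2 Affymetrix arrays of QGP1, an established human cell line from a pancreatic neuroendocrine tumour. One array held RNA of QGP1 cells sorted by flow cytometry for high aldehyde dehydrogenase (ALDH) activity, an activity by which stem-like tumour cells are often enriched, and the other RNA of control QGP1 cells. No drug, genetic change or time point is labelled for either group, and the sources used here do not say whether the control cells were sorted too. A gene was measured through every probe set that the platform annotation gives to it alone. By that rule 9 of the 10 genes were measured, by 33 probe sets, out of 19775 genes and 54613 probe sets in all. BBC3 (PUMA) is listed only on a probe set shared with other gene symbols and is not analysed here.

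Values are log2 levels made with RMA, and every difference is the log2 level in ALDH-high cells minus that in control cells. Each group had 1 array, so there was no replicate error, no test was made and every difference describes these 2 arrays. As a yardstick, the differences read by several probe sets of 1 gene varied with a pooled SD of 0.23, or 0.18 where only probe sets at or above the table's median level entered. Neither value covers the spread between cultures or sorts. Where 1 value per gene was needed, the probe set brightest on average over both arrays was taken, termed the brightest below. In bulk RNA a lower level per cell and fewer expressing cells cannot be told apart.

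BCL2 proteins set the threshold of the mitochondrial path to apoptosis. BAX and BAK1 form pores in the outer mitochondrial membrane, BCL2, BCL-XL (from BCL2L1) and MCL1 hold them in check, and the BH3-only proteins PUMA, NOXA (from PMAIP1) and BIM (from BCL2L11) counter that restraint or activate the pore formers. The receptors encoded by TNFRSF10A and TNFRSF10B start apoptosis from the cell surface, through the adaptor FADD and caspase-8, and the BH3-only protein BID links this path to the mitochondria.

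TNFRSF10B was the only one of the 9 genes that was over 2-fold different, being 2.83-fold lower in ALDH-high cells. The other 8 genes lay between -0.09 and 0.40, at most 1.32-fold apart. Over 2-fold lower were 1.23% of all genes, and over 2-fold higher 0.465%, against 1 and 0 of the 9. At 1.5-fold the counts for the 9 genes were again 1 lower and 0 higher, where 4.21% and 2.61% of all genes lay. Of the 33 probe sets, 1 was over 2-fold different, and the remaining 32 were within 1.5-fold. Among all probe sets, 0.842% were over 2-fold lower and 0.403% over 2-fold higher, and 3.09% and 2.78% were beyond 1.5-fold in these directions. Of the 9 genes 6 were higher and 3 lower, with a median of 0.18, while 45.6% of all genes were higher and their median was -0.005. The mean over the 9 genes was -0.02.

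**Figure D1:**
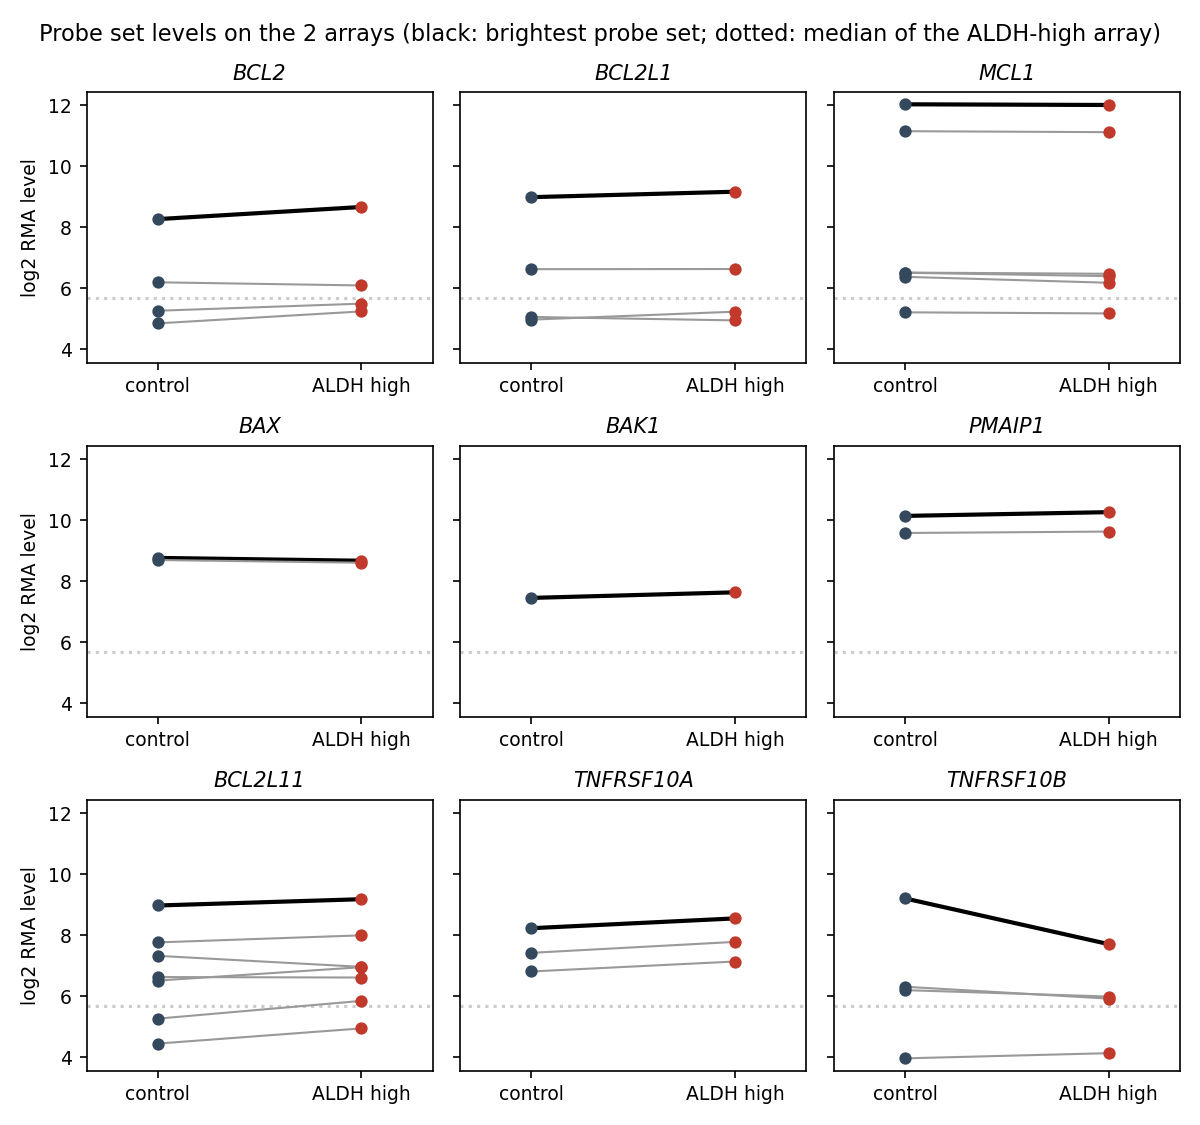
Log2 RMA level of each probe set of the 9 genes on the control array (blue) and the ALDH-high array (red), with a line per probe set, black for the brightest. The steepest line is that of TNFRSF10B, from 9.21 to 7.71, while the brightest lines of the other genes change by at most 0.40.

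The pro-survival genes were level or slightly higher. BCL2, the founding member, had a brightest level of 8.66 in ALDH-high and 8.27 in control cells, a difference of 0.40 (1.32-fold). Its other probe sets differed by 0.39, 0.23 and -0.10, so 3 of 4 were higher, and the mean over all 4 was 0.23. The probe sets at 0.39 and 0.23 were below the median of both arrays (5.24 against 4.84 and 5.49 against 5.26). BCL2 ranked 1337th from the highest difference among all genes, and 15.2% of genes were at least as far from 0.

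BCL2L1 was 9.17 in ALDH-high and 8.99 in control cells, a difference of 0.18 that is within the yardstick. Its probe sets did not share a direction. The other 3 differed by 0.26, 0.005 and -0.11, and the mean of all 4 was 0.08. MCL1, which encodes a short-lived protein, was the most level of the 9 genes, at 12.01 against 12.03. All 6 of its probe sets were lower, with differences from -0.02 to -0.195, each within the pooled SD of 0.23. The 2 brightest MCL1 probe sets were near the top of both arrays, at percentiles of 96.6 or more.

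The pore formers were also nearly level. BAX was 8.67 in ALDH-high and 8.77 in control cells, a difference of -0.09, and its 2 probe sets agreed to within 0.003. Both can bind more than 1 transcript, as their IDs end in _s_at, and they may share transcripts. BAK1 had a single probe set, at 7.64 against 7.45, a difference of 0.18. BAX and BAK1 thus pointed in opposite directions, each by less than 0.23.

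Because a survival gene and a pore former are often read together, their differences were set against each other within the arrays. On the brightest probe sets the difference of BCL2 exceeded that of BAX by 0.49, so the BCL2 to BAX ratio was 1.40-fold higher in ALDH-high cells. As means over probe sets BCL2 differed by 0.23 and BAX by -0.09, a smaller gap. For BCL2L1 over BAX the ratio was 1.21-fold higher, and for BCL2 over BAK1 1.16-fold higher. MCL1 relative to its partner PMAIP1 was lower by a log2 value of -0.145, and relative to BCL2L11 by -0.23. No ratio of these 5 pairs reached 1.5-fold.

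The BH3-only genes that were measured differed little on their brightest probe sets. PMAIP1, whose product NOXA mainly binds MCL1, was 10.27 in ALDH-high and 10.14 in control cells, a difference of 0.12, and its second probe set differed by 0.05. BCL2L11 was 9.18 against 8.98, a difference of 0.21 (1.15-fold). Its 7 probe sets were the most spread of any BCL2 family gene here, from -0.36 to 0.58, with 5 higher and 2 lower, a mean of 0.23 and an SD of 0.33. The 2 brightest agreed, at 0.21 and 0.23. The largest positive values, 0.58 and 0.50, came from the 2 probe sets with the lowest levels (5.85 against 5.26 and 4.94 against 4.44). The lowest, -0.36, came from a probe set at 6.96 against 7.32 that the annotation pairs with transcript NM_138626. BCL2L11 is spliced into several BIM forms, and which forms each probe set reads was not determined here.

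**Figure D2:**
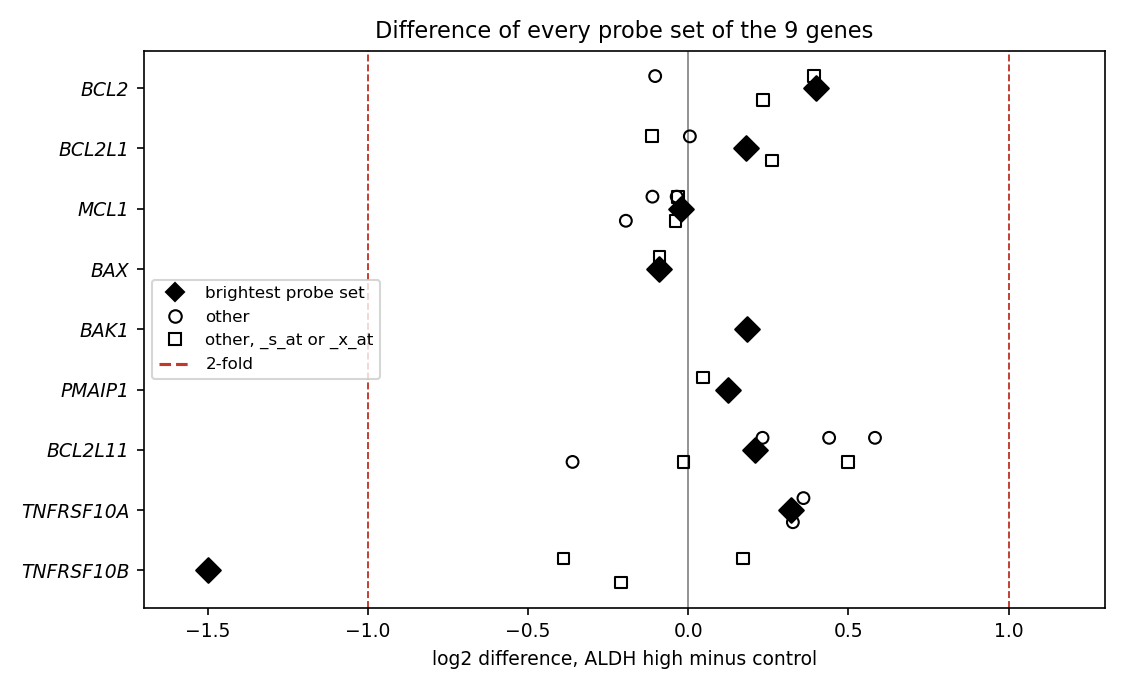
Log2 difference, ALDH high minus control, of all 33 probe sets (filled diamond for the brightest of a gene, open circle for another, open square for another with an ID ending in _s_at or _x_at; points are shifted vertically for legibility). Only the brightest TNFRSF10B probe set passes the dashed 2-fold lines, and the 3 TNFRSF10A probe sets lie together between 0.32 and 0.36.

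The 2 TRAIL death receptors differed in opposite directions. TNFRSF10A (DR4) was 8.55 in ALDH-high and 8.23 in control cells, 1.25-fold higher. Its other probe sets were 7.78 against 7.42 and 7.14 against 6.81. The 3 differences were 0.32, 0.36 and 0.33, with an SD of 0.02, so the probe sets agreed closely. At 0.32 the brightest lay at percentile 90.0 of differences over all genes, and 22.0% of genes were at least as far from 0.

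TNFRSF10B (DR5) was 7.71 in ALDH-high and 9.21 in control cells on its brightest probe set. This difference of -1.50 was the 70th lowest of 19775 genes. The other 3 probe sets showed less. The 2 with IDs ending in _x_at, which are open to cross-hybridisation, stood at 5.92 against 6.31 (-0.39) and 5.99 against 6.20 (-0.21). The last was dim, at 4.13 against 3.96 (0.17). The large value therefore rests on 1 of 4 probe sets, 3 of which were lower. The mean over the 4 was -0.48 and their median -0.30, and as either of these the gene was no longer over 2-fold lower. The brightest level stood at percentile 87.2 of the control array and 74.1 of the ALDH-high array, so neither was near the floor, whereas the _x_at probe sets stood between percentiles 53.8 and 59.5.

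Relative to TNFRSF10B, TNFRSF10A was higher in ALDH-high cells by 1.82 on the log2 scale (3.53-fold) with the brightest probe sets, and by 0.82 (1.76-fold) with the means over probe sets. The ligand and the decoy receptors, which bind TRAIL without starting apoptosis, were each within 1.5-fold. TNFSF10, which encodes TRAIL, was 7.36 against 7.49 (-0.13), and its 3 probe sets lay between -0.40 and -0.08. The decoy receptor TNFRSF10C was 5.80 against 5.68 (0.13), and TNFRSF10D had the same level of 4.24 on both arrays, too dim to show much. TNFRSF11B (osteoprotegerin), a soluble receptor that also binds TRAIL, was 10.44 against 10.45. Over these 6 TRAIL genes the median difference was -0.001.

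Promoter sequence from RefSeq (GRCh38.p14) was searched for 7 of the 10 genes, in 8 windows of 250 bases before to 50 after a start. MCL1, TNFRSF10A and TNFRSF10B were not among them, so the search says nothing about their promoters. The search used both strands. TGATGNAA, the core of the element bound by ATF4 and CHOP, was in none of the 8 windows and in 3.62% of all 35116 promoters of the table. A core of the NF-kB element was in 5 of the 8 and in 58.7% of all. TTTNNCGC, a loose form of the E2F element core that takes any base at its 2 N positions, was found once, in 1 of the 2 BCL2L1 windows (6.89% of all promoters hold it). One decamer unit of the p53 element was found in BAK1 alone (6.63% of all promoters). The p53 and E2F matches do not overlap, being in different genes. The 2 rarer matches are shown, with the match in capitals, as the only ones of these 3 narrower motifs in the windows searched. The BCL2L1 window is chr20:31724042-31724099 and the BAK1 window chr6:33580315-33580374, both on the minus strand and printed 5′ to 3′ along the gene, all of it before the start.
BCL2L1: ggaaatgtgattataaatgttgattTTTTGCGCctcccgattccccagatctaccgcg
BAK1: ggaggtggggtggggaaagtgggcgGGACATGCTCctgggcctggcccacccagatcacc
The matches begin 111 bases before the BCL2L1 start and 73 bases before the BAK1 start. They describe sequence, and both genes differed by 0.18 between the arrays.

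The wider cell death machinery was compared through 12 lists with 112 different genes, of which 104 were measured and the other 8 were not analysed here. Leaving out the 9 genes above and the listed transcription factors, 78 genes remained, with a median of -0.05, 29 higher, 45 lower and 4 equal. Of these 78, 1 was over 2-fold lower and 0 over 2-fold higher, next to 1.23% and 0.465% of all genes. Over 1.5-fold were 2 lower and 4 higher, next to 4.21% and 2.61% of all genes.

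The other BCL2 relatives showed both directions. Of 7 measured BH3-only genes, 3 were higher (BID, BCL2L11 and PMAIP1) and 4 lower, with a median of -0.28. HRK, a BH3-only gene known from neurons, was 6.01 against 6.61, 1.52-fold lower, with 4 of its 5 probe sets lower. BMF, which encodes a BH3-only protein tied to the cytoskeleton, was 6.26 against 6.81 (-0.55) on a single probe set. BIK and BAD, named after their values were seen, differed by -0.45 and -0.28, and BID, the link from death receptors to mitochondria, by 0.34 with its 3 probe sets between 0.34 and 0.57. The 6 pro-survival relatives, BCL2, BCL2L1 and MCL1 included, had a median of 0.13 with none beyond 1.5-fold, and BOK, the third pore-former relative, differed by -0.05.

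BNIP3L (NIX), a mitophagy receptor with a BH3-like stretch, was the 1 gene of the 78 over 2-fold lower. Its probe sets were 8.83 against 9.91 (-1.09) and 8.24 against 9.12 (-0.88), so both were lower by a similar amount. MOAP1, a BAX activator, was 9.94 against 10.31 (-0.36). The paralog BNIP3 differed by -0.26. The list of other BCL2-homology and BNIP genes had a median of 0 over 12 genes, 4 higher, 5 lower and 3 equal.

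**Figure D3:**
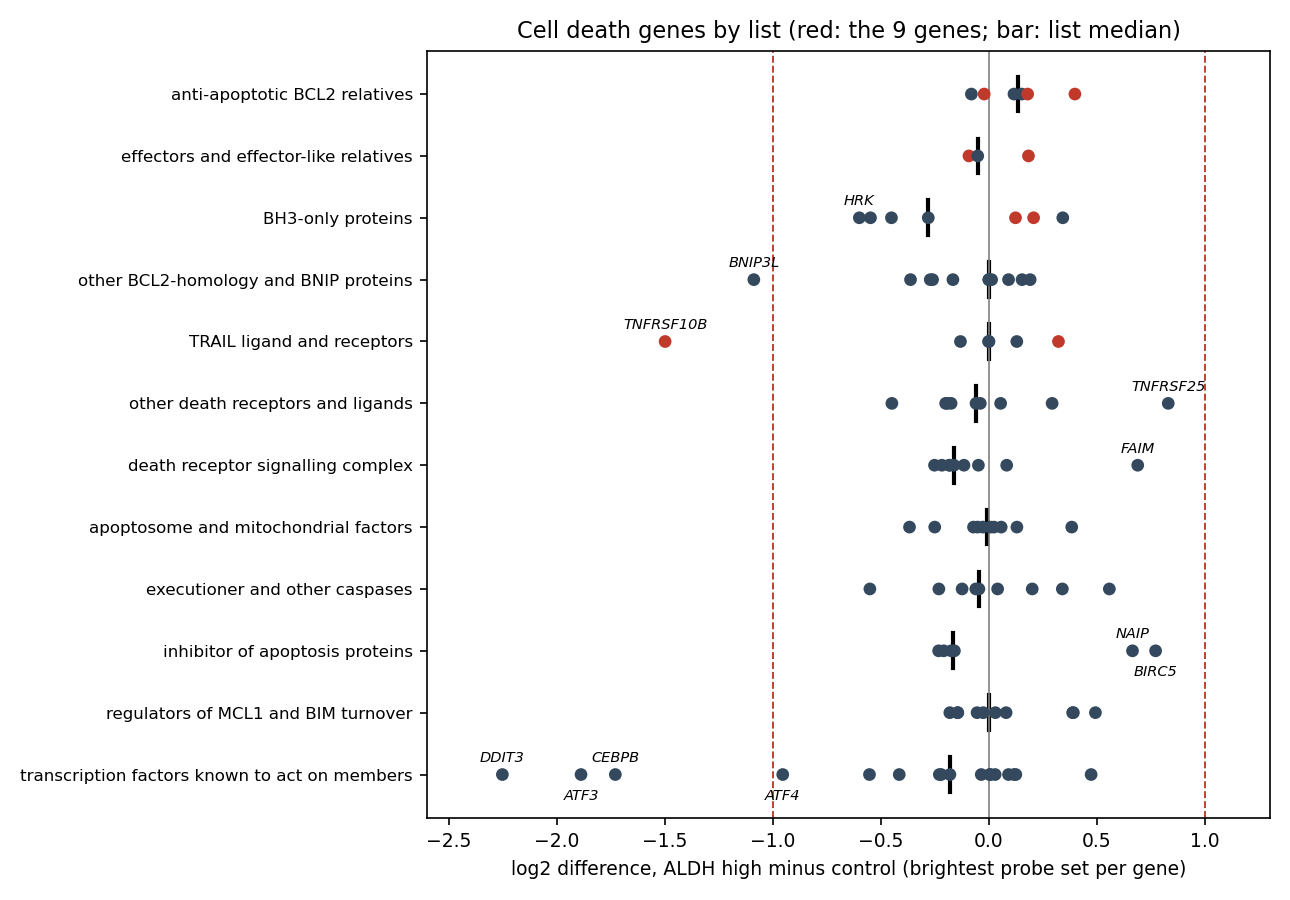
Log2 difference, ALDH high minus control, of the brightest probe set of each measured gene in 12 cell death lists, with the 9 genes described first in red and a bar at each list median. Outside the transcription factors, TNFRSF10B and BNIP3L are the genes beyond the dashed 2-fold lines, and the list medians lie between -0.28 and 0.13.

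Of the other death receptors and ligands, TNFRSF25 (DR3), a death-domain receptor best known on lymphocytes, was 9.38 against 8.55, 1.78-fold higher. Its 4 probe sets other than the dimmest differed by 0.70 to 0.83, but all 4 can bind more than 1 transcript, as their IDs end in _s_at or _x_at. The dimmest, the only one without such an ID, differed by -0.17 (5.73 against 5.89). TNFRSF1A, the main receptor of TNF, was 7.94 against 8.38 (-0.45). FAS was 6.07 against 6.27 (-0.20) on the brightest of 5 probe sets. The 9 genes of this list had a median of -0.06, with 3 higher and 6 lower.

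Most genes of the receptor complex list, which also holds regulators, were slightly lower. Of 9 measured genes 7 were lower and 2 higher, with a median of -0.16, while 50.3% of all genes were lower. With the mean of the probe sets of a gene the list median was -0.095. The adaptor FADD was 9.82 against 9.93 (-0.12), the initiator CASP8 6.42 against 6.47 (-0.05), and CFLAR, the caspase-8 inhibitor FLIP, 8.01 against 8.19 (-0.18), with 14 probe sets from -0.34 to 0.12. TRADD, an adaptor of the TNF receptor, was 8.56 against 8.82 (-0.25). The 2 higher genes were FAIM, which encodes an inhibitor of Fas-induced death, and PEA15, a death-effector-domain protein. FAIM was 8.76 against 8.08, 1.61-fold higher on a single probe set, and PEA15 9.21 against 9.13 (0.08, with its second probe set at 0.28). FADD, CASP8, CFLAR and PEA15 were named here after their values were seen, the first 3 because they act directly below the TRAIL receptors.

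No gene of the steps at and after the mitochondria was over 1.5-fold different. The 10 genes of the apoptosome and mitochondrial factors had a median of -0.01, with 5 higher and 5 lower. ENDOG, a mitochondrial nuclease, differed by 0.38 and APAF1, the scaffold that activates caspase-9, by -0.37, but the other 2 APAF1 probe sets lay nearer 0 and the median of the 3 was -0.02. Another factor released from mitochondria, HTRA2, differed by -0.25. Of 9 caspases and caspase substrates 4 were higher and 5 lower. CASP2 was 11.05 against 10.49 (0.56) and CASP4, an inflammatory caspase, 8.84 against 9.39 (-0.55), although the second CASP4 probe set differed by 0.27. The executioner CASP6 was 9.87 against 9.53 (0.34, second probe set 0.20), and CASP5 differed by -0.23 at a low level (4.86 against 5.09). HTRA2, CASP6 and CASP5 were named after their values were seen.

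Of 6 inhibitor of apoptosis genes, 2 were over 1.5-fold higher, next to 2.61% of all genes. BIRC5 (survivin), which also acts in the chromosomal passenger complex at mitosis, was 11.22 against 10.44, 1.71-fold higher, and all 4 of its probe sets were higher, by 0.70 to 1.18. NAIP, a sensor of bacterial proteins, was 8.46 against 7.80, 1.58-fold higher, with its 3 probe sets between 0.22 and 0.76. The other 4 genes lay between -0.23 and -0.16, among them XIAP, the direct caspase inhibitor, at 10.56 against 10.79. All 7 XIAP probe sets were lower, with differences from -0.07 to -0.71.

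Of 17 measured transcription factors known to act on BCL2 family or TRAIL receptor genes, 3 were over 2-fold lower and 0 over 2-fold higher, next to 1.23% and 0.465% of all genes. DDIT3 (CHOP), known to raise TNFRSF10B in stressed cells, was 8.76 against 11.01, 4.77-fold lower on its only probe set. CEBPB was 9.34 against 11.07, 3.32-fold lower, and ATF3 6.95 against 8.84, 3.70-fold lower, with its other probe sets at -0.85 and 0.24. ATF4, which acts above DDIT3 and is known to raise PMAIP1, was 11.82 against 12.78, 1.94-fold lower. These factors differed in the direction of TNFRSF10B and not in that of PMAIP1 (0.12), and their part in the TNFRSF10B difference was not tested. The other 13 factors were within 1.5-fold. MYC was at -0.55, FOXO3, a known activator of BCL2L11, at -0.42 (4 of 4 probe sets lower), and E2F1 at 0.12. Of the NF-kB subunits, NFKB1 was at 0.47 and RELA at 0.03. These 5 were named after their values were seen. The list median was -0.18.

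The arrays were alike in overall level, with medians of 5.68 and 5.69. Poly-A control transcripts, which are added to the RNA before labelling, were higher on the ALDH-high array by 0.32 on average (SD 0.07 over 24 probe sets), a size similar to the differences of TNFRSF10A (0.32) and BCL2 (0.40). Hybridisation controls differed by 0.05 (SD 0.04 over 18). The part of the poly-A shift in those differences was not tested. The 6 measured neuroendocrine markers and 5 epithelial markers were each at or above the median of at least 1 array, with none over 1.5-fold different. Of the markers of other cell types, 1 of 4 leukocyte, 1 of 5 endothelial and 2 of 7 fibroblast markers were at or above it. Among the leukocyte markers LYZ (4.34 against 5.67) and CD14 (4.30 against 5.32) were over 2-fold lower at levels below the median of both arrays, while PTPRC, the pan-leukocyte marker, was at 3.56 against 3.34. The summed linear level of the leukocyte list was 101.9 against 157.8, of the endothelial list 173.7 against 185.3 and of the fibroblast list 354.0 against 408.4.

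**Figure D4:**
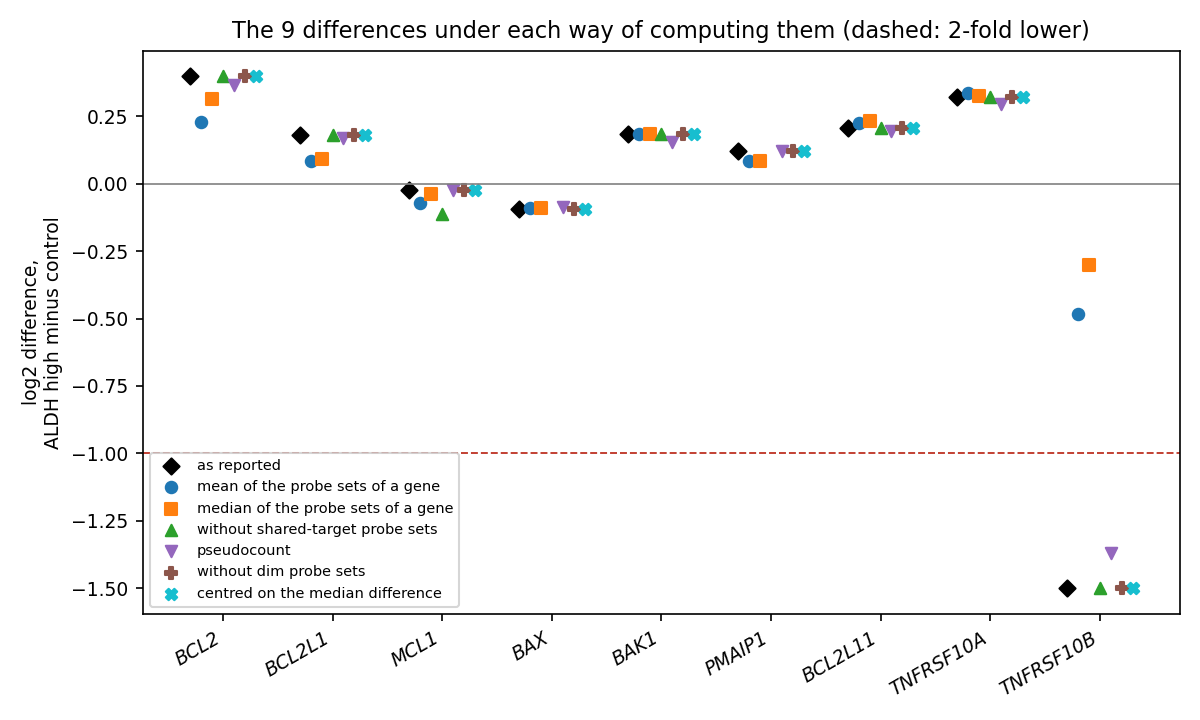
Log2 difference, ALDH high minus control, of each of the 9 genes as reported and under 6 other ways of computing it (marker shape and colour). TNFRSF10B passes the dashed 2-fold line except when its 4 probe sets are averaged (-0.48) or their median is taken (-0.30), and the other 8 genes keep their sign. Centring subtracts 0 and no brightest probe set is dim, so these ways leave every value unchanged.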

How the data were processed

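The authors deposited log2 levels per probe set from RMA, per the submitters' processing notes. Its version, and which arrays were normalised together, are not stated in these sources. The labels' protocols give column-purified RNA and a 3′ in vitro transcription labelling kit. From these values the log2 difference, ALDH high minus control, was computed for 54613 probe sets and, through the brightest probe set of a gene, for 19775 genes (Python 3.11.15, pandas 2.3.3). Symbols were taken from the platform's annotation in GEO, and all 9 matched a RefSeq table by Entrez ID. With 1 array per group no test was made, and the number of arrays limits the precision. The gene summary and fold threshold were tested on simulated data in which all probe sets of a gene shared 1 planted fold. Probe sets that disagree as much as those of TNFRSF10B were not simulated. The genes and lists were chosen with earlier results of these data known. Named were every probe set of the 9 genes and, in each list, up to 4 genes over 1.5-fold at least the 2 furthest from 0. Alternatives were the mean or median of probe sets, leaving out shared-target (_s_at, _x_at) or dim probe sets, a linear pseudocount of 32, centring, and a 1.5-fold threshold.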

Additional observations from a re-analysis of the deposited data

How the results depend on the processing

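With the mean of the probe sets of a gene, 0 of the 9 genes were over 2-fold lower and TNFRSF10B differed by -0.48; with the median of the probe sets the values were 0 and -0.30. Both follow from weighting its 4 probe sets equally, of which 1 was over 2-fold lower. Under the remaining alternatives TNFRSF10B stayed between -1.50 and -1.37, the latter with a pseudocount of 32. All of these read the same single probe set, so they could not test whether its other probe sets bear the value out. Of 52 recomputed differences of the 9 genes, 50 moved by less than the pooled SD of 0.23, and 0 changed sign. Many of them could not move, so these counts say little about stability. Centring subtracted a median of 0, which also leaves list medians as they were, and no brightest probe set was dim. Without shared-target probe sets only MCL1 changed, to -0.11. The 72 recomputed list medians also moved by less than 0.23, but 8 of them, in 4 lists, changed sign. Without shared-target probe sets the caspase median was 0.17 (from -0.05), that of the inhibitors of apoptosis 0.02 (from -0.17), that of the apoptosome 0.09 (from -0.01) and that of the pore formers 0.09 (from -0.05). Without dim probe sets the BNIP list stood at -0.21 (from 0). Without shared-target probe sets BAX and PMAIP1 had no probe set left. No alternative replaces a replicate: the levels of dim probe sets have no detection call, and differences between cultures or sorts were not measured.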

Other observations

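Genes that govern the turnover of MCL1 and BIM, not described above, included both directions. SKP2, a ubiquitin ligase subunit of the cell cycle, was 10.05 against 9.56 (0.49, with 3 of 3 probe sets between 0.37 and 0.59), and FBXW7, a ubiquitin ligase subunit known to target MCL1, was 11.30 against 10.91 (0.39, with 4 of 4 between 0.29 and 0.51). The MCL1 ligase HUWE1 (-0.15) and the deubiquitinase USP9X (-0.18) were slightly lower, and the 10 genes had a median of 0.002. HUWE1 and USP9X were named after their values were seen.

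TNFSF15, which encodes the ligand of TNFRSF25, gave opposite readings on its 2 probe sets. The brightest was 11.74 against 11.45 (0.29), and the other was 7.66 against 9.59, 3.81-fold lower in ALDH-high cells. Which transcripts each reads was not determined here, and the gene was named after its values were seen.

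Some small differences recurred exactly. The size of the -0.36 of the BCL2L11 probe set named above was found, to 6 decimals, in 33 probe sets of the table, and 4 of the 33 probe sets of the 9 genes had a size of difference shared by at least 20 probe sets. None of these 4 was the brightest of its gene.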
